A study of Mus musculus with 2 samples.

Results

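The fibrillins and the latent TGF-beta binding proteins (LTBPs) are a family of large secreted glycoproteins, and the transcripts of its 6 mouse genes Fbn1, Fbn2, Ltbp1, Ltbp2, Ltbp3 and Ltbp4 were described in Prrc2a RIP-seq of mouse brain. The family was chosen by its peak counts, which earlier results of these data had shown, so the number of peaks per gene and their enrichment are a description with no test. Any peak touching an exon of a gene by 1 bp or more was assigned to that gene, and a peak of replicate 1 counted as shared if it touched one of replicate 2 by 1 bp or more. The 6 genes held 81 of the 18129 peaks of replicate 1, 30 of the 18671 peaks of replicate 2 and 26 of the 8372 shared peaks. Prrc2a, a proline-rich RNA-binding protein that the study examined as a reader of m6A, was pulled down with an antibody from whole-brain lysate of wild-type male C57BL/6J mice aged 4 weeks, after a preclear with normal goat IgG. There was 1 condition with 2 replicates, no knockout or mock pulldown was analysed here, and the protocol describes 3 brains without saying how they were divided between the replicates. Bound RNA was digested with micrococcal nuclease before sequencing, and each peak came with a fold enrichment, which is the ratio on a linear scale of immunoprecipitated to control signal, with the control library not named in the methods.

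Fibrillins polymerise into the microfibrils of the extracellular matrix, which scaffold elastic fibres and hold growth factors of the TGF-beta superfamily. Ltbp1, Ltbp3 and Ltbp4 bind latent TGF-beta and tether it to those microfibrils, whereas Ltbp2 associates with microfibrils without binding latent TGF-beta. The proteins are built from tandem calcium-binding EGF-like repeats interspersed with TB domains, which carry a triplet of consecutive cysteines, and most of these modules are encoded by short exons of their own. Fbn2 is best known from developing tissues and Fbn1 from tissues of all ages, including the walls of blood vessels.

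To show what the peaks covered, coding exons of Fbn1 and Ltbp1 were read from GRCm38 on the strand of the gene (minus for Fbn1, plus for Ltbp1). They are the 3 places where Fbn1 had a peak in both replicates, and the Fbn1 exon with the highest enrichment. For Ltbp1 they are the exon with the highest enrichment in each replicate among peaks with their midpoint in coding sequence. Ltbp1 exon 35 was higher in replicate 1, at 4.59, but the midpoint of its peak lay in the 3′ UTR. Capitals mark the 9 bases that encode a cysteine triplet, and the motif GGAC, the core of the sequence in which m6A is usually placed.
Fbn1 exon 11, peak in both replicates, chr2:125389171-125389311: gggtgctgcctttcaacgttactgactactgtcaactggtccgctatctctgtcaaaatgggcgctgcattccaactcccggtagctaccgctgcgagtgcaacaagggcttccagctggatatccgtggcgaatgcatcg
Fbn1 exon 16, peak in both replicates, chr2:125377787-125377939: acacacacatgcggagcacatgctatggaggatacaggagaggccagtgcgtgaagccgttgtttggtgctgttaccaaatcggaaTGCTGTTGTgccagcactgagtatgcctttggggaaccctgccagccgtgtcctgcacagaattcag
Fbn1 exon 57, the bases under the peaks of both replicates, chr2:125314730-125314800: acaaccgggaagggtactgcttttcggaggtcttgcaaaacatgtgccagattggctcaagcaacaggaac
Fbn1 exon 24, peak in replicate 1, chr2:125365484-125365711: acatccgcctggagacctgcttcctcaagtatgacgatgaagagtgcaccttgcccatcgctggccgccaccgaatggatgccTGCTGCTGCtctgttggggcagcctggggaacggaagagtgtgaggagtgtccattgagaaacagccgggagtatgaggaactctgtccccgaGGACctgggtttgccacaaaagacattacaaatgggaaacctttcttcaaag
Ltbp1 exon 12, peak in replicate 2, chr17:75273867-75274034: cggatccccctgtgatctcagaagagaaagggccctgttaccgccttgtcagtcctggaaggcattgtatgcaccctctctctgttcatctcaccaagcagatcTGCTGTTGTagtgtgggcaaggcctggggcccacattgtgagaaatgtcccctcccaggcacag
Ltbp1 exon 19, peak in replicate 1, chr17:75292756-75292878: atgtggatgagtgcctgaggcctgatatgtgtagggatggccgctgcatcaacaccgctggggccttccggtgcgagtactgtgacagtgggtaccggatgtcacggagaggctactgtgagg

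In the 3 Fbn1 stretches under peaks of both replicates, none held GGAC, and 1 held the bases of a cysteine triplet. Fbn1 exon 24 held both features. Ltbp1 exon 12 held a triplet without GGAC, and Ltbp1 exon 19 held neither. Exon 57 of Fbn1 also encodes a cysteine triplet, which lies in the portion outside the replicate 2 peak.

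Peaks were concentrated in the fibrillins. Fbn2 (ENSMUSG00000024598, minus strand of chromosome 18, 58008623 to 58210487) had 50 peaks in replicate 1 and 24 in replicate 2, of which 23 were shared. Fbn1 (ENSMUSG00000027204, minus strand of chromosome 2, 125300594 to 125507993) had 28 peaks in replicate 1, 3 in replicate 2, and 3 shared. Fbn2 had the most peaks of the 6 genes in both replicates, and the drop from replicate 1 to replicate 2 was much steeper for Fbn1 than for Fbn2.

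Ltbp1 (ENSMUSG00000001870, plus strand of chromosome 17, 75005568 to 75392512) had 3 peaks in each replicate and none was shared. Ltbp2 (ENSMUSG00000002020, minus strand of chromosome 12, 84783212 to 84876532) had 0 peaks in both replicates, over its 36 exons or anywhere else between its ends. Ltbp3 (ENSMUSG00000024940, plus strand of chromosome 19, 5740904 to 5758532), a partner of latent TGF-beta with 28 exons, likewise had 0 peaks in both. Ltbp4 (ENSMUSG00000040488, minus strand of chromosome 7, 27305136 to 27337692), with 33 exons, also had 0 peaks in both. Read depth and transcript level are not known from the peak lists, so low abundance or shallow sequencing of Ltbp2, Ltbp3 and Ltbp4 and a lack of enrichment cannot be told apart.

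A shared exonic peak was thus present in 2 of the 6 genes, against 12% of all 21951 protein-coding genes. Among the 4458 protein-coding genes whose exons summed to at least the 6463 bp of Ltbp4, the shortest of the 6, the share was 31.9%, which is close to that of the family. Each replicate had a peak in 3 of the 6 genes, against 16.5% of protein-coding genes in replicate 1 and 21% in replicate 2. Fbn2 ranked 5 among protein-coding genes by its number of shared peaks, a place it held together with Lrp1b.

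The transcript models frame these counts. Fbn1 and Fbn2 each have 65 exons, which sum to 12128 bp and 13215 bp and make up 5.85% and 6.55% of the gene from end to end. Neither gene had a peak in its introns that did not also touch an exon, in either replicate, and the same held for Ltbp1, whose 10691 exonic bp are 2.76% of its length. Shared peaks therefore came to 1.74 per kb of exon for Fbn2 and 0.247 per kb for Fbn1, compared with 0.0767 per kb over all protein-coding genes and 0.356 per kb over those with a shared peak. Peaks covered 70.6% of the exonic bases of Fbn2 in replicate 1 and 30.3% in replicate 2. For Fbn1 the coverage was 39.8% and 3.01%, and for Ltbp1 8.39% and 3.99%.

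Along Fbn2, peaks were present from the first exon to the last. Replicate 1 had peaks over 50 of the 65 exons and replicate 2 over 24, with 23 exons in common and 14 exons without a peak in either. The longest unbroken series in replicate 1 ran over the 23 exons from 43 to 65. In replicate 2 it ran over the 7 exons from 57 to 63. Of the 14 exons without a peak, 8 lay in exons 2 to 5 and 11 to 14. Among wholly coding exons, 30 of the last 32 had a peak in replicate 1 but 18 of the first 31, and in replicate 2 the corresponding numbers were 14 and 8. The exons of Fbn2 share 1 transcript and are not independent of each other, so these counts are a description.

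Fbn2, which encodes the fibrillin of developing microfibrils, had its highest mean enrichment at exon 37, with 9.21 in replicate 1 and 6.87 in replicate 2 (8.04 ± 1.66, SD, n = 2). The peak over exons 29 and 30 had 9.99 and 5.77 (7.88 ± 2.98, SD, n = 2), and that over exon 63 had 11.3 and 4.16 (7.75 ± 5.08, SD, n = 2). Of these 3, the replicates were farthest apart at exon 63, which held the highest value of replicate 1 for any of the 6 genes.

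The highest Fbn2 value of replicate 2, 10.3, was at exon 57, where replicate 1 had 4.23 (7.26 ± 4.29, SD, n = 2). The peak with its midpoint in the coding portion of exon 65, the last exon, also reached into the 3′ UTR in both replicates. There replicate 2 was again the higher, with 10.0 against 5.32 (7.68 ± 3.33, SD, n = 2). The adjacent peak in the 3′ UTR of exon 65 had 6.30 in replicate 1 and 5.77 in replicate 2 (6.03 ± 0.375, SD, n = 2). At the other end, the peak of exon 1 had its midpoint in the 5′ UTR and covered coding bases too, in both replicates. Its enrichment was 9.60 and 3.85 (6.72 ± 4.07, SD, n = 2), and exon 6 had 7.65 and 6.87 (7.26 ± 0.558, SD, n = 2).

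The remaining 15 shared Fbn2 peaks had mean enrichments from 3.84 to 6.64. Exon 61 was the highest of them, at 7.65 in replicate 1 and 5.62 in replicate 2, and exon 59 the lowest, at 3.51 and 4.18. Exon 24, which encodes a TB domain, had 5.76 and 6.27. Since the SD between replicates at several exons was as large as the differences between exons, the order of the Fbn2 exons by enrichment was not distinguishable beyond the replicate spread.

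Some Fbn2 peaks were present in 1 replicate alone. The 27 unshared peaks of replicate 1 had a median enrichment of 5.13, below the 6.10 of the 23 shared ones. The nearest of them lay 166 bp from a replicate 2 peak. The only unshared peak of replicate 2, over exon 19, had an enrichment of 3.76 and lay 2469 bp from the nearest replicate 1 peak. A peak near the 5′ end of Fbn2 that was present only in replicate 1, with an enrichment of 5.78, also overlapped an exon of the non-coding gene Gm26507, and the lists give no strand by which to separate the pair.

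**Figure D1:**
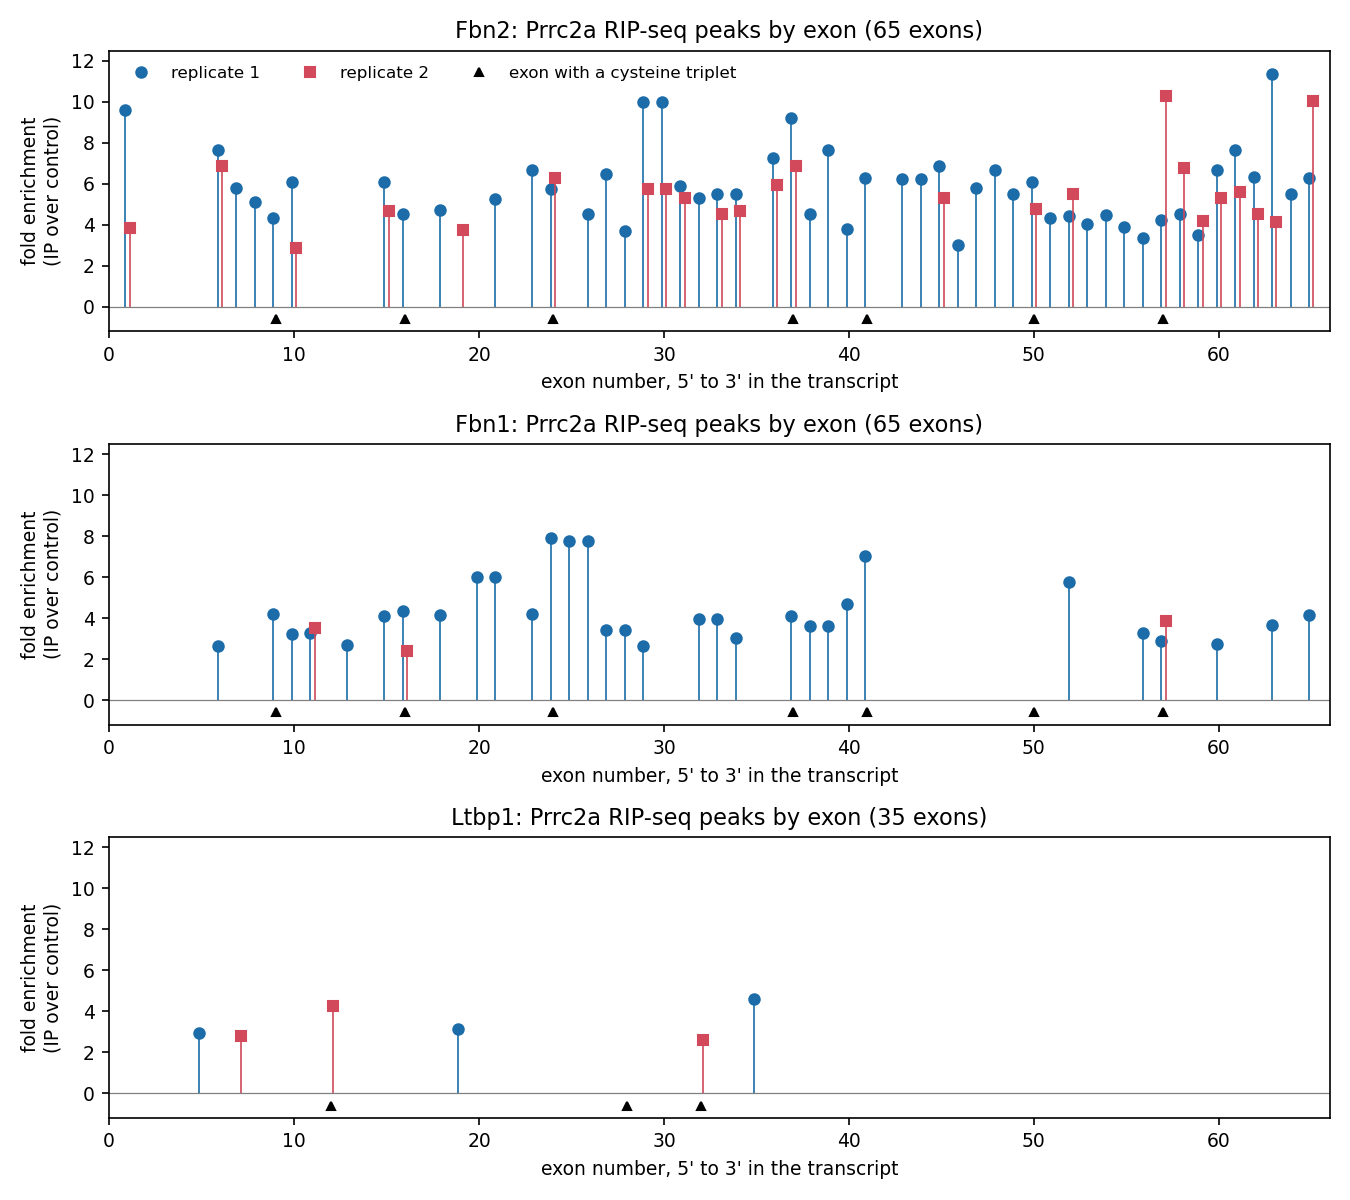
Fold enrichment of the peak over each exon (vertical axis, immunoprecipitated over control signal on a linear scale) against exon number for Fbn2, Fbn1 and Ltbp1, with circles for replicate 1, squares for replicate 2 and triangles under the axis at exons that encode a cysteine triplet. Fbn2 had peaks over 50 exons in replicate 1 and 24 in replicate 2, Fbn1 over 31 and 3, and the 3 and 3 exons of Ltbp1 did not coincide.

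Fbn1, which encodes the main fibrillin of adult microfibrils, had peaks over 31 exons in replicate 1 and over exons 11, 16 and 57 in both replicates. At exon 11 the enrichment was 3.26 in replicate 1 and 3.51 in replicate 2 (3.39 ± 0.178, SD, n = 2). At exon 16 it was 4.34 and 2.38 (3.36 ± 1.38, SD, n = 2), and at exon 57 it was 2.88 and 3.85 (3.36 ± 0.682, SD, n = 2). The 3 means were indistinguishable given this spread.

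The Fbn1 peaks with the highest enrichment had no counterpart in replicate 2. Exon 24, printed above, had 7.92 in replicate 1, the peak over exons 25 and 26 had 7.77, and exon 41 had 7.05. These were followed by the peak over exons 20 and 21 with 6.02. The 25 unshared peaks of replicate 1 had a median of 4.07, above the 3.26 of the 3 shared ones, so that in Fbn1 presence in both replicates did not go with higher enrichment. The nearest unshared peak lay 306 bp from a replicate 2 peak. Peaks in the first 31 wholly coding exons of Fbn1 numbered 18 exons against 12 of the last 32, the opposite order to Fbn2, and 10 successive exons from 42 to 51 had no peak.

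Ltbp1, which anchors latent TGF-beta in the matrix, had peaks over different exons in each replicate. In replicate 1 they lay over exon 5 with an enrichment of 2.96, over exon 19 with 3.16 and over exon 35 with 4.59. The exon 35 peak had its midpoint in the 3′ UTR but also covered coding bases. In replicate 2 the peaks lay over exon 7 with 2.79, over exon 12 with 4.26 and over exon 32 with 2.61. The closest pair of peaks from different replicates was 18613 bp apart. No exon of Ltbp1 therefore had a value in both replicates, and no replicate error can be given for it.

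The 2 fibrillin genes, which are paralogs, were compared exon by exon, since both have 65 exons and 52 of these are equal in length. The identity of equal-length exons had a median of 69.9% and ranged from 48.5% to 84.8%, and the longest stretch identical between the 2 transcripts was 26 bases. In replicate 1, 27 exon numbers had a peak in both genes, 23 in Fbn2 alone, 4 in Fbn1 alone and 11 in neither. At those 27 the Fbn2 value was the higher at 21, with medians of 5.52 for Fbn2 and 3.97 for Fbn1. In replicate 2 the only exon number with a peak in both genes was 57, at 10.3 in Fbn2 and 3.85 in Fbn1. The coincidences in replicate 1 thus took in 27 of the 31 Fbn1 exons with a peak, where Fbn2 had peaks over 50 of all 65 exons, and in replicate 2 they took in 1 of 3, where Fbn2 had peaks over 24 of 65.

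Exons were also grouped by what they encode, a grouping chosen after the peaks had been seen. Of the 63 wholly coding exons of each fibrillin, 42 matched the hydroxylation pattern of calcium-binding EGF repeats, 7 encoded a cysteine triplet and 14 had neither. In Fbn2, replicate 1 peaks lay over 35 of the 42 EGF exons, all 7 triplet exons and 6 of the other 14, and replicate 2 peaks over 16, 4 and 2. In Fbn1, replicate 1 peaks lay over 19, 6 and 5, and replicate 2 peaks over 0, 2 and 1. Triplet exons had the highest share in each of these 4 lists. Ltbp1, with 3 triplet exons, had peaks over 2 of them in replicate 2 and 0 in replicate 1. The triplet exons were also the longer ones, with a median of 153 bp for those of Fbn2 with a replicate 1 peak against 126 bp for the EGF exons with one, and the part of length was not tested.

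Within each fibrillin, wholly coding exons with a replicate 1 peak were richer in G and C than those without one, at 54.8% against 49.0% in Fbn2 and 52.7% against 50.5% in Fbn1. This did not extend across the family, since the wholly coding exons of Ltbp2, Ltbp3 and Ltbp4 had 58.9%, 61.1% and 62.2% and no peak. The median lengths of fibrillin exons with and without a peak were close, at 126 bp against 120 bp in Fbn2 and 126 bp against 123 bp in Fbn1. The exons with neither EGF pattern nor triplet differed more in length. They had medians of 158 bp with a peak against 89.5 bp without in Fbn2, and 141 bp against 83 bp in Fbn1. Fbn2 exons without a peak in either replicate were at most 138 bp long, whereas those of Fbn1 reached 2554 bp. Over all wholly coding exons, GGAC was slightly less dense in those with a peak, at 5.96 against 6.45 per kb in Fbn2 and 2.81 against 3.95 per kb in Fbn1. The direction for GGAC was not uniform, since in the first 31 wholly coding exons of Fbn2 it was denser in exons with a peak, at 8.11 against 5.89 per kb in replicate 1 and 11.1 against 5.59 per kb in replicate 2. In the last 32 it was less dense in exons with a peak, at 2.01 against 7.42 per kb in replicate 2. In replicate 1 it was 4.55 against 10.4 per kb there, where 30 of the 32 had a peak.

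The peaks were wider than the exons they lay over. Of the Fbn2 peaks in replicate 1, 44 overlapped exactly 1 wholly coding exon, and these had a median width of 360.5 bp over exons with a median of 126 bp. They ran past both exon ends in 37 cases and past 1 end in 7, by a median of 124 bp upstream and 119.5 bp downstream, and the median distance between the midpoints of peak and exon was 13 bp. In replicate 2, 20 such Fbn2 peaks had a median width of 302 bp and ran past both ends in 11 cases and past 1 end in 9, with a median midpoint distance of 32 bp and a range up to 107 bp. Fbn1 had 20 such peaks in replicate 1, of which 18 ran past both ends, with a median midpoint distance of 14.5 bp. The 3 such Fbn1 peaks of replicate 2 had midpoint distances from 19 to 149 bp. Most fibrillin peaks of replicate 1 thus lay about the centre of an exon and reached into the intron sequence on both sides.

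**Figure D2:**
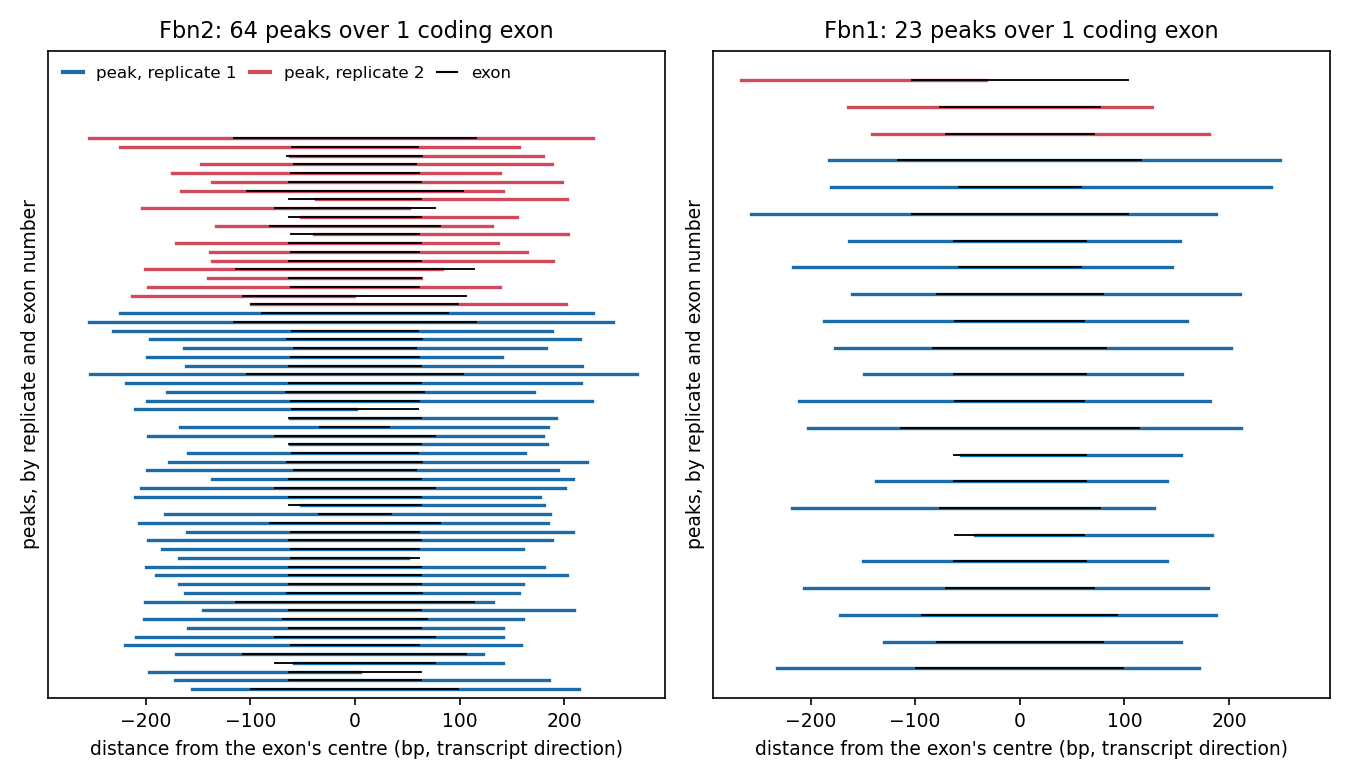
Extent of each peak that overlapped exactly 1 wholly coding exon of Fbn2 (left) or Fbn1 (right), with the horizontal axis giving the distance in bp from the centre of the exon and 1 line per peak, coloured by replicate, over a thin black line for the exon. In replicate 1 the peaks ran past both exon ends in 37 of 44 cases for Fbn2 and 18 of 20 for Fbn1.

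The same shape was present in other genes. Among shared peaks over exactly 1 coding exon of 100 to 200 bp, a length range chosen after the peaks had been seen, 14 of 15 in Fbn2 ran past both exon ends, and 521 of 585 in 255 other protein-coding genes did so too (89.1%). The exonic part of the peak had a median of 33.8% in Fbn2 and 39.6% in the other genes. The enrichment of these peaks differed more, with replicate 1 medians of 6.10 in Fbn2 and 2.64 in the other genes. Because the family was chosen on its peaks, this difference was not tested.

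Over all 26 shared peaks of the family, the median enrichment was 6.10 in replicate 1 and 5.31 in replicate 2, beside 2.27 and 2.81 over the 7317 shared exonic peaks of all protein-coding genes. Fbn2 was higher in replicate 1 at 17 of 23 shared peaks and Fbn1 at 1 of 3, beside 2100 of the 7317 over all protein-coding genes. The median log2 ratio of replicate 1 to replicate 2 was 0.29 (SD 0.63 over the 26 peaks), whereas over all shared exonic peaks it was -0.26 (SD 0.52). By these medians Fbn2 leaned towards replicate 1, at 0.29, whereas Fbn1, at -0.11, and shared peaks in general leaned towards replicate 2. In the single lists, the median of all Fbn2 peaks lay above 96.1% of exonic peaks in replicate 1 and above 95% in replicate 2. For Fbn1 these positions were 86.9% and 79.2%, and for Ltbp1 74.8% and 61%.

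**Figure D3:**
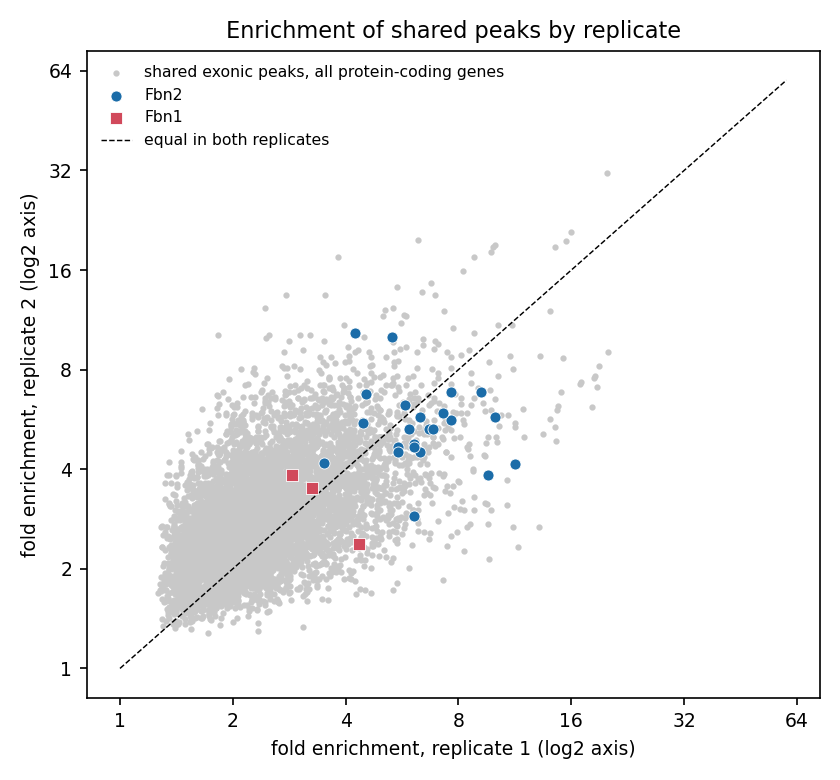
Fold enrichment in replicate 2 against replicate 1 (both on log2 axes) for each shared peak of Fbn2 (circles) and Fbn1 (squares) over the shared exonic peaks of all protein-coding genes (grey), with a dashed line where the replicates are equal. Of the 23 Fbn2 peaks, 17 lay on the side of replicate 1, beside 2100 of the 7317 over all protein-coding genes.

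The share of the family's peaks that recurred differed between the lists. In replicate 1, 32.1% of the 81 peaks overlapped a replicate 2 peak, below the 61.3% of all exonic peaks, while in replicate 2 it was 86.7% of 30, above the 47.9% of all. All but 1 of the 27 fibrillin peaks of replicate 2 thus lay on a replicate 1 peak, and the shared pairs of the fibrillins overlapped by 171 to 482 bp. A further property of these values was that many were repeated exactly. An enrichment held by at least 10 peaks of the same list was found at 59 of the 81 peaks in replicate 1 (72.8%) and 23 of the 30 in replicate 2 (76.7%), against 9.94% and 12.2% of exonic peaks of all protein-coding genes. In Fbn2 it was 72% and 75%. What produces repeated values was not tested.

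By the annotation at the midpoint, 22 of the 26 shared peaks (84.6%) lay in coding sequence, 1 in a 3′ UTR, 1 in a 5′ UTR and 2 in introns. Over all shared exonic peaks 50.7% lay in coding sequence and 30.5% in a 3′ UTR. Fbn2 accounted for 19 of the 22 and for the others outside coding sequence, and all 3 of Fbn1 were coding. When the region was instead set by the largest number of overlapping bases, 19.2% were assigned to coding sequence. That rule was not applied to all shared exonic peaks, so the comparison with 50.7% holds by midpoint only. The exonic part of the peak had a median of 38.6% in the family and 100% over all shared exonic peaks. Only 1 of the 26 was wholly exonic, against 51.5% of all shared exonic peaks.

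GGAC occurred in the exonic bases of 14 of the 26 shared peaks (53.8%), 13 of them in Fbn2 and 1 in Fbn1, against 77.9% of all shared exonic peaks. It was searched on the strand of the gene only. The exonic bases per peak were fewer, with a median of 147 bp against 376 bp, and per kb of exonic bases the motif came to 4.21 in the family and 4.64 overall. The longer motif GGACT, which contains GGAC, was in 2 of the 26 (7.69%) against 43%. GC content was 53.1% and 52.6%. The lower share of peaks with GGAC was thus accompanied by fewer exonic bases and a similar density. Within the family the GGAC density was 4.41 per kb in Fbn2 and 2 per kb in Fbn1, the latter over 501 exonic bases. A density of GGACT was not computed, so the statement does not extend to the longer motif.

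The other genes of the pathway were taken from lists chosen with earlier results of these data known. Of 77 genes, 35 (45.5%) had a shared exonic peak, beside the 12% of all protein-coding genes and the 31.9% of those at least as long in exons as Ltbp4. These comprised 8 of 13 TGF-beta superfamily ligands (61.5%), 7 of 13 activators and anchors of latent TGF-beta, 6 of 12 receptors, 8 of 14 Smads and their nuclear partners, and 6 of 25 partners of microfibrils and elastic fibres (24%). Shared peaks per kb of exon were 0.387 for ligands, 0.305 for receptors, 0.248 for Smads, 0.126 for activators and 0.0992 for microfibril partners. Fbn2, with 1.74, was above each of these lists as a whole, and Fbn1, with 0.247, was near the Smads.

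Among those 77 genes the highest mean enrichment of a shared peak was in Hspg2, which encodes the basement membrane proteoglycan perlecan, with 7.34 in replicate 1 and 6.22 in replicate 2 (6.78 ± 0.791, SD, n = 2). Thsd4, which promotes microfibril assembly, followed with 4.18 and 8.02 (6.10 ± 2.72, SD, n = 2). The ligands among the first 10 were Inhba with a mean of 5.35 (SD 0.827), Bmp2 with 5.19 (SD 0.0459), Inhbb with 4.70 (SD 1.36), Tgfb2 with 4.50 (SD 1.87) and Tgfb1 with 4.07 (SD 2.50), each with n = 2. The others were Smad3, a signal transducer of TGF-beta receptors, with 4.59 (SD 0.339), Lrrc32, which presents latent TGF-beta on cell surfaces, with 4.49 (SD 1.38), and the BMP receptor Bmpr2 with 4.05 (SD 1.77). Of the 25 listed partners of microfibrils and elastic fibres, the 6 with a shared peak were Mfap3, Emilin1, Loxl1, Adamts17, Thsd4 and Hspg2. The other listed partners, the elastin gene Eln among them, had none. The highest mean of Fbn2, 8.04, was above that of Hspg2 by less than the spread between its own replicates.

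The Notch receptors and the Lrp genes, taken for comparison, had a similarly uneven distribution of peaks between members. Of the Notch receptors, Notch1 had 18 peaks in replicate 1, 24 in replicate 2 and 18 shared, and Notch2 had 21, 25 and 20, whereas Notch3 had 1, 5 and 0 and Notch4 had none. Per kb of exon, Notch2 had 1.85 shared peaks, the only one of the Notch and Lrp genes above the 1.74 of Fbn2. Notch1 followed with 1.26. Of 11 Lrp genes, which encode endocytic and signalling receptors, Lrp1b had 55, 26 and 23, while Lrp1 had 1, 22 and 0 and Lrp2 had none. Fbn2 and Lrp1b therefore had nearly the same counts, with many more peaks in replicate 1, and Notch1, Notch2 and Lrp1 had more in replicate 2. The highest mean enrichment of a shared Lrp1b peak came from 12.0 in replicate 1 and 5.02 in replicate 2 (8.50 ± 4.92, SD, n = 2). It was above the 8.04 of Fbn2 by less than this spread. The next highest among the Notch and Lrp genes was 6.33, in Notch1.

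**Figure D4:**
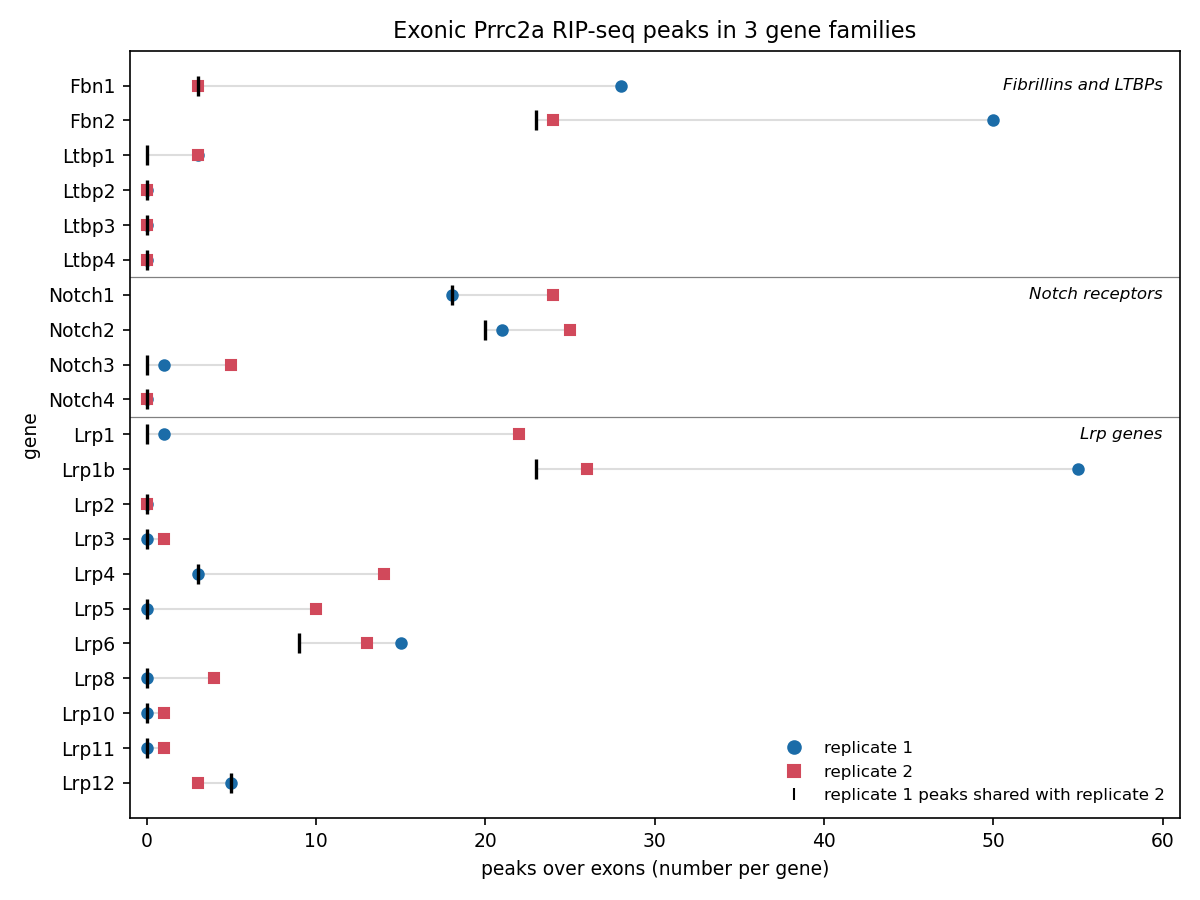
Number of peaks over exons (horizontal axis) for each of the 6 fibrillin and LTBP genes, 4 Notch receptors and 11 Lrp genes, with circles for replicate 1, squares for replicate 2 and black ticks for replicate 1 peaks shared with replicate 2. Fbn2 had 50, 24 and 23 and Lrp1b 55, 26 and 23, while Ltbp2, Ltbp3, Ltbp4, Notch4 and Lrp2 had none.

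Markers of the labelled tissue and of cells it could contain were read from the same lists. Of 27 markers, 7 had an exonic peak in replicate 1, 8 in replicate 2 and 3 a shared one, beside 16.5%, 21% and 12% of all protein-coding genes, with 0 of 5 neuronal, 1 of 4 astrocytic, 0 of 4 oligodendrocyte, 1 of 6 vascular and meningeal, 1 of 3 microglial, 0 of 2 choroid plexus and 0 of 3 pituitary markers sharing a peak. Of the pituitary hormone genes, Gh and Prl had 1 peak each in replicate 1 and 0 in replicate 2, and Pomc had 0 in both. Of the vascular and meningeal markers, the collagen gene Col1a1 had 9 peaks in replicate 1, 12 in replicate 2 and 8 shared, and Pdgfrb and Col1a2 had 0 in replicate 1 and 3 each in replicate 2. The part of these cells in the fibrillin counts was not tested. Peaks report enrichment and not transcript level, so these markers do not measure the makeup of the tissue.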

How the data were processed

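Prrc2a RIP-seq was analysed in 2 replicates of wild-type mouse brain. Per the submitters' processing notes, reads were aligned to mm10 with TopHat2 2.0.9 and peaks were called with MACS2 2.0.10, in each replicate separately. The methods of the paper give other versions of both programs. The deposited fold enrichment is a linear ratio over the control, and the authors' peak lists used here hold positions beside it but no counts, p-values, strand or depth, so precision is known only from the 2 replicates. Whether these came from separate animals is not stated.

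From these lists, overlaps with exons of GENCODE M21 and with GRCm38 sequence were computed in Python 3.11.15, with positions counted from 1 at both ends, and figures were drawn with matplotlib 3.10.9. Exon numbers follow the transcript with the longest coding sequence. The code was tested on simulated data with 400 genes, where 8 of 8 quantities were recovered. All 6 members were named, with values for the 10 pathway genes of highest mean enrichment in a shared peak, and Notch and Lrp genes for comparison. The members and lists were chosen with earlier results of these data known. With 1 condition, no test was run. Alternatives covered overlap, enrichment, annotation, exonic overlap, region, motif and each replicate alone.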

Additional observations from a re-analysis of the deposited data

How the results depend on the processing

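Counting all exonic peaks of 1 replicate in place of shared ones gave 30 to 81 peaks in the 6 genes in place of 26, and 0.502 to 1.36 peaks per kb of exon in place of 0.435. An enrichment of at least 4 in both peaks left 20 shared peaks and 1 gene, Fbn2, with Fbn1 lost. Coding sequence held 84.6% of shared peaks by midpoint, 19.2% by most overlapping bases, and 73.1% when replicate 2 peaks were counted. GGAC was in 53.8%, in 23.1% within 50 bp of the midpoint and in 46.2% when replicate 2 peaks were counted, and GGACT in 7.69%. The other alternatives for the number of shared peaks (overlap of 50% of both peaks, replicate 2 peaks counted, coding exons, basic transcripts, 1 gene per peak, at least 50 exonic bp) gave 23 to 26 peaks in 2 genes. No paired analysis was possible because there was 1 condition. Depth is unknown and limits what the absence of a peak in Ltbp2, Ltbp3 and Ltbp4 can show.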
